A study of Mus musculus with 80 samples.

Results

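Interferon-high progenitors were the cells with many transcripts of *Ifit1*, *Ifit3* and *Cxcl10* among the hematopoietic stem and progenitor cells (HSPCs) that old hematopoietic stem cells (HSCs) had formed 14 days after transplantation. Of 8201 single cells kept in 4 scRNA-seq libraries, 4339 came from the day 14 libraries, and 91 of these were interferon-high, 39 in the CD150low library and 52 in the CD150high library. A cell was kept with at least 2000 detected genes and at most 5% mitochondrial UMIs (unique molecular identifiers, each marking 1 captured RNA molecule), and it was interferon-high when *Ifit1*, *Ifit3* and *Cxcl10* together had at least 3 UMIs per 10000 UMIs of the cell. The members were thus chosen by measured expression, and the levels of these genes, and of every other gene in the same cells, are given as a description with no test.

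The donors were old male C57BL/6 mice (22 to 24 months). Their long-term HSCs, sorted as lineage-negative Sca-1+ c-Kit+ CD48- CD34- CD150+ cells, were divided by surface CD150, the product of *Slamf1*, and those with the lowest CD150 (CD150low) or the highest (CD150high) were injected, with helper marrow cells depleted of Sca-1+ cells, into lethally irradiated young male mice that carry the CD45.1 allele. On day 14, lineage-negative Sca-1+ c-Kit+ (LSK) cells of the CD45.2 donor allele were sorted for droplet scRNA-seq, 1 library per group, so differences between the libraries have no replicate check, and the number of recipients behind a library is not given in the labels. Single-cell libraries of freshly isolated HSCs from young mice (2 to 3 months) and old mice, and bulk libraries of fresh old HSCs in 4 classes of CD150 (G1 lowest to G4 highest, 3 mice) and of HSCs recovered on day 4 after transplantation (3 libraries per CD150 group), served for comparison.

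Interferons are secreted signalling proteins. Type I interferons are released by many kinds of cell on sensing viral nucleic acid, and type II interferon by activated T and natural killer cells. Type I interferons bind the receptor of *Ifnar1* and *Ifnar2*, type II interferon that of *Ifngr1* and *Ifngr2*, Janus kinases then activate the STAT factors, and complexes of STAT factors with IRF9 bind interferon-stimulated response elements (ISREs) in front of antiviral genes. HSCs are known to respond to interferon, and Sca-1, the product of *Ly6a* and a part of the LSK gate, is itself known to be induced by it.

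The kept cells held 50612605 UMIs in the CD150low library (median 19440 per cell, 2406 cells of 3567 barcodes) and 64097515 in the CD150high library (median 30650, 1933 of 9631). Interferon-high cells made up 1.62% of the CD150low cells (95% exact binomial interval 1.16% to 2.21%) and 2.69% of the CD150high cells (2.02% to 3.51%). The share was 1.07 percentage points higher in the CD150high library (Newcombe interval 0.206 to 2.00), and these intervals cover counting error only. At an equal depth of 10878 UMIs per cell, reached by random thinning (395 CD150low and 39 CD150high cells were too shallow for it), the shares were 0.845% (17 of 2011) and 2.43% (46 of 1894). The cells left out as too shallow included 18 of the 39 CD150low and 1 of the 52 CD150high interferon-high cells, so the thinned shares cover a different set of cells and are not a depth-corrected form of the first comparison. The interferon-high cells were shallower than the rest, with a median of 12760 UMIs against 19550 in the CD150low library and 20740 against 30960 in the CD150high library. The limit is a rate, so a shallow cell passed it with fewer UMIs, and how far this made the chosen cells shallower was not tested. Interferon-high cells held 2 to 127 UMIs of *Ifit1*, *Ifit3* and *Cxcl10* together (median 6) in the CD150low library. In the CD150high library they held 3 to 220 (median 12.5), so some cells passed on very few molecules. Because of the difference in depth, values are also given below against depth-matched cells, the 10 other cells of the same library nearest in UMI total to each interferon-high cell. Of 12 barcodes shared by the day 14 libraries, 3 were kept in both and none of these was interferon-high.

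The 3 rule genes were unequally carried. *Ifit1*, whose product binds viral RNA, was detected in 39 of 39 and 51 of 52 interferon-high cells, and it was the gene with the most rule UMIs in 34 and 37 of them. *Ifit3*, its relative, was detected in 21 and 30. *Cxcl10*, a chemokine that draws T cells, was detected in 8 CD150low cells and 29 CD150high cells. All 3 were seen together in 7 and 18 cells, and *Ifit1* alone in 17 and 11. A single CD150low cell held 107 of the 153 *Cxcl10* UMIs of that library. The rule genes summed to 3.04, 5.41 and 58.6 UMIs per 10000 in the lowest, median and highest interferon-high CD150low cell, and to 3.13, 5.28 and 177 in the CD150high library. Just inside the limit, 14 and 17 cells lay below 4 UMIs per 10000. Just outside, 30 and 20 other cells lay at 2 or more, the highest of them at 2.88 and 2.86. So the limit divided a continuous range in both libraries, with 8 and 15 cells at 10 or more. No UMI of the rule genes was found in 81.0% and 69.5% of the other cells. Since any cell can respond to interferon, no cell type here served as a negative for these genes.

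The stretches of DNA before the starts of the rule genes, and of *Isg15*, an antiviral gene that the rule did not use, are shown for the response elements they hold. The 250 bases before each start were taken from RefSeq (GRCm38.p6), 5′ to 3′ on the strand of the gene, with matches to the ISRE letters (GAAA, any 2 bases, GAAA), searched on both strands, in capitals.
Ifit1, chr19:34640639-34640888, plus strand: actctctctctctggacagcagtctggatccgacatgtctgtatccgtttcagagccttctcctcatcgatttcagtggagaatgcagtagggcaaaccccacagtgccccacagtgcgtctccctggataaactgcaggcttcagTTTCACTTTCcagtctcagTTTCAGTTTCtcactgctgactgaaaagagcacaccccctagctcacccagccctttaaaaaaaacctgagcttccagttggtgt
Ifit3, chr19:34583279-34583528, plus strand: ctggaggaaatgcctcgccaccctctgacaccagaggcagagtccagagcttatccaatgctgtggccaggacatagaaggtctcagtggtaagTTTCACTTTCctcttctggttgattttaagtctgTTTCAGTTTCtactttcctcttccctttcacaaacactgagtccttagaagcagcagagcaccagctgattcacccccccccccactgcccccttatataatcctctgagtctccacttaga
Cxcl10, chr5:92348890-92349139, minus strand: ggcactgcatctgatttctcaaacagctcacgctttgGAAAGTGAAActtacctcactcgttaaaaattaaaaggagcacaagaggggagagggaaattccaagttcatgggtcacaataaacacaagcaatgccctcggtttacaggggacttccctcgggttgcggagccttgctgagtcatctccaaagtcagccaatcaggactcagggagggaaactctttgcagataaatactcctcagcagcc
Isg15, chr4:156200819-156201068, minus strand: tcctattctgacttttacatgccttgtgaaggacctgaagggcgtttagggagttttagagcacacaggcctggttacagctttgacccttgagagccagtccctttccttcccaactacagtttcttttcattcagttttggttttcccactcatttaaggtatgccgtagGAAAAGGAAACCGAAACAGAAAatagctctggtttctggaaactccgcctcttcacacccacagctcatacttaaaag
*Ifit1* had matches that begin 104 and 85 bases before the start, *Ifit3* 156 and 122 bases, and *Cxcl10* 213 bases. The 3 matches of *Isg15*, at 78, 72 and 66 bases, overlap. Of all 27025 genes in the table, 3.46% had a match in this window. The 3 rule genes all had one, as did 13 of the 29 genes of the antiviral list found in the table and 9 of 10 interferon-inducible GTPases. Matches were seen in 1 of 7 signalling factors, in 0 of 5 interferon receptors, in 1 of 10 MHC class I pathway genes and in 1 of 10 long-term HSC markers. The letters TTCNNNGAA, known as the gamma-activated site, were found in 8.13% of all genes, in 6 of the 10 GTPases and in none of the rule genes. A match is a description of the letters only.

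The interferon-high cells carried the antiviral program well beyond the genes that chose them. Over a list of 35 interferon-induced antiviral genes that leaves out the rule genes, the summed level was 7632 CPM (UMIs of all cells of a group added up and scaled to the same total) in the interferon-high CD150low cells against 1740 in the other cells, and 7821 against 2026 in the CD150high library. The log2 ratios were 2.13 and 1.95 (1.98 and 1.62 against depth-matched cells). Each interferon-high cell lay above the median of the other cells of its library, and 31 of 39 and 43 of 52 lay above their 95th percentile. Of 8052 genes with enough counts (at least 20 UMIs in the interferon-high cells together or 20 CPM in the other cells of both libraries), 228 were at least 2-fold higher in both libraries, which is 2.83%, and 4 were at least 2-fold lower in both, 0.0497%. In the CD150low library alone 6.25% were higher and 1.81% lower by that measure, and in the CD150high library alone 3.89% and 0.273%. As the choice of cells used this contrast, nothing is read from the counts that follow, which stand beside these shares and a median log2 ratio over all genes of 0.08 and 0.03. Genes under 20 CPM in the other cells had enough counts only through the interferon-high cells, which tilts all such counts toward higher genes.

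**Figure D1:**
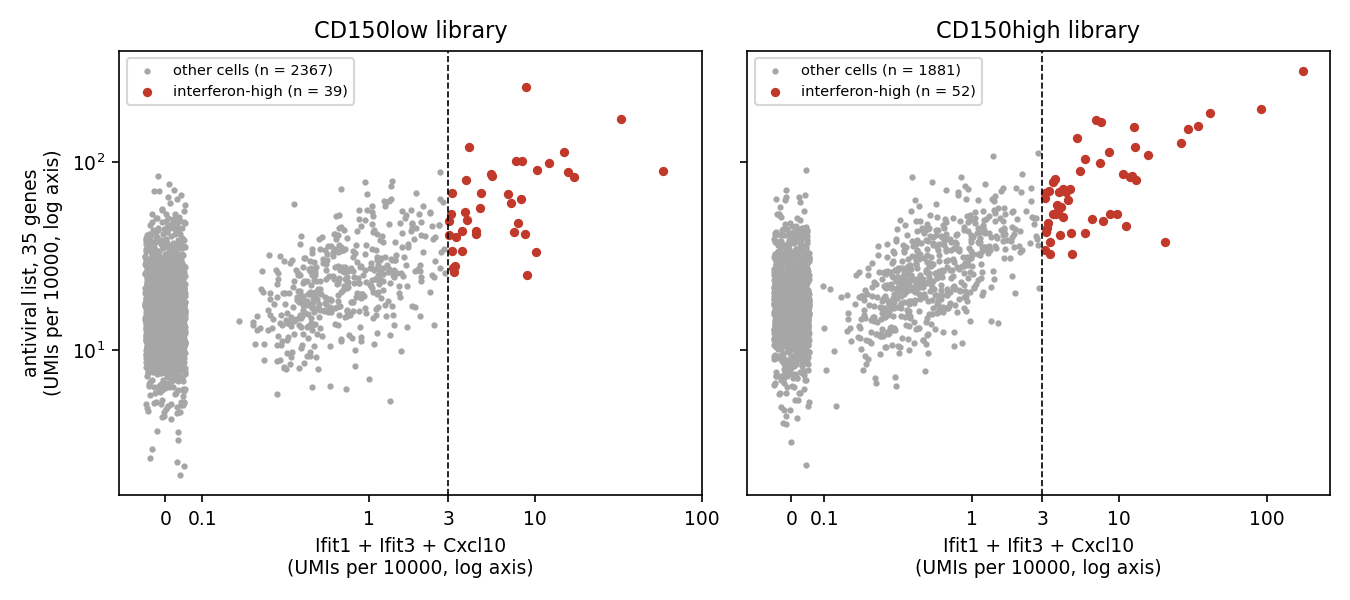
Each point is a cell, by its UMIs of *Ifit1*, *Ifit3* and *Cxcl10* per 10000 UMIs (x, log axis, cells with none spread around 0) and its UMIs of 35 other antiviral genes per 10000 (y, log axis), with interferon-high cells in red and the limit of 3 dashed. Interferon-high cells had a median of 57.0 antiviral UMIs per 10000 in the CD150low and 69.6 in the CD150high library, against 16.8 and 19.2 in the other cells, and the ranges overlapped.

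Of 33 antiviral genes with enough counts, 32 were at least 2-fold higher in both libraries, with median log2 ratios of 2.36 and 2.41. *Isg15*, a ubiquitin-like modifier, was at 572 CPM against 42.7 in the CD150low library and at 539 against 47.8 in the CD150high library, and 36 of 39 and 49 of 52 interferon-high cells held it. *Rsad2* (viperin, which stops viral RNA synthesis) was at 291 CPM against 12.8 and at 298 against 14.3. Levels in the interferon-high cells thus differed little between the libraries for both genes. *Oasl2* and *Oas3* belong to the oligoadenylate synthetase family that senses double-stranded RNA, and their log2 ratios were 3.33 and 2.84, and 3.16 and 2.41. *Zbp1*, a sensor of left-handed nucleic acid, was higher by log2 3.73 and 3.35. *Ifitm3*, which blocks entry of viruses at membranes, was the most abundant gene of the list, at 2083 CPM against 685 and at 2510 against 903, and it was detected in all interferon-high cells. The exception was *Lgals3bp*, with log2 ratios of 0.96 and 0.84.

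Interferon-inducible GTPases, which attack the vacuoles of intracellular pathogens, had higher ratios than the antiviral list. Their sum was 1825 CPM against 295 in the CD150low library and 1712 against 343 in the CD150high library, or log2 2.63 and 2.32 (2.55 and 2.02 against depth-matched cells). Of 14 with enough counts, 13 were at least 2-fold higher in both libraries, and *Ifi47* was just under that at log2 1.00 and 0.94. *Iigp1* led the list with 459 CPM against 20.9 and 481 against 34.2, in 29 of 39 and 50 of 52 interferon-high cells. *Gbp2*, *Igtp* and *Irgm1* were higher by log2 2.71, 3.08 and 2.35 in the CD150low library and by 2.36, 2.43 and 2.36 in the CD150high library.

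Among the signalling genes, several transcription factors were high, and the receptors and kinases were nearer to the other cells. *Irf7*, which drives type I interferon genes, was at 307 CPM against 23.6 in the CD150low library and at 186 against 23.8 in the CD150high library. *Stat2*, *Irf1* and *Irf9* also passed 2-fold in both libraries, with log2 ratios of 2.10, 1.215 and 1.41 in the CD150low and 2.45, 1.86 and 1.00 in the CD150high library. The kinases *Jak1*, *Jak2* and *Tyk2* had log2 ratios between 0.11 and 0.51. Of the feedback inhibitors, *Usp18*, which removes ISG15 and blocks the receptor, was higher by log2 3.44 and 3.17, *Socs1* by 2.91 and 2.48, and *Socs3* by 1.14 and 1.68, while *Pias1*, *Ptpn2* and *Ptpn6* lay between -0.37 and 0.35. The receptor list was at log2 0.38 and 0.23, and none of its 5 measured genes passed 2-fold, with *Ifnar2* at 70.4 CPM against 53.7 and at 58.1 against 49.0. No UMI of the 10 interferon genes searched, *Ifnb1*, *Ifna1* and *Ifng* among them, was found in any interferon-high cell. At this depth, 3 UMIs over all interferon-high cells would be 5.42 CPM in the CD150low and 2.42 CPM in the CD150high library, so lower levels were not detectable.

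Some sensors of viral nucleic acid were high as well. *Ddx58* (RIG-I), *Ifih1* (MDA5), *Dhx58* and *Zbp1* passed 2-fold in both libraries, 4 of 9 sensor genes with enough counts, with *Ddx58* at 184 CPM against 38.7 and at 171 against 38.0. The adaptors *Sting1*, at log2 0.31 and 0.33, and *Myd88*, at 0.76 and 0.37, did not, nor did the transcription factor *Irf3*, at -0.05 in both. Antigen presentation by MHC class I was higher by log2 0.42 and 0.43 over 12 genes. *B2m*, the light chain, was at 2433 CPM against 1718 and at 2415 against 1739, and *H2-K1*, a heavy chain, at 1596 against 1252 and 1613 against 1247. Only *Tapbp*, which loads peptides, and *Nlrc5*, the activator of the class I genes, passed 2-fold in both libraries, with *Tap1* close to it at 0.93 and 0.97. The checkpoint ligand *Cd274* (PD-L1), named after its values were seen, was at 28.9 CPM against 10.1 and at 29.8 against 9.74. Its log2 ratios were 1.555 and 1.634, and 1.128 and 0.932 against depth-matched cells. A chemokine of the list, which leaves out *Cxcl10*, was found in 21 interferon-high cells of each library. The 147 *Cxcl9* UMIs of the CD150low library came from 2 cells, and the 73 of the CD150high library from 3. *Ccl4*, in 13 and 9 cells, and *Ccl5*, in 4 and 4, were higher by log2 2.53 and 1.76 in the CD150low library and by 2.13 and 3.02 in the CD150high library. Against depth-matched cells *Ccl4* was at 1.27 and 1.19 and *Ccl5* at 1.58 and 3.32. In the CD150low library 13 of the 33 *Ccl4* UMIs came from 1 cell. The NF-kB response list was higher by 0.60 and 0.64, and 2 of its 9 genes with enough counts passed 2-fold in both libraries. Immediate early genes were higher by 0.69 and 0.62 (0.33 and 0.25 against depth-matched cells).

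Of the 228 genes, 139 were in no list. By the rule that ranks genes outside the lists by the library with the smaller ratio, the 12 highest were *Ifi204*, *Ifi208*, *F830016B08Rik*, *Ifi213*, *Gm4951*, *Apol9a*, *Ifi206*, *Ms4a4c*, *Trim30c*, *Ifi209*, *Apol9b* and *Saa3*. *Ifi204*, *Ifi206*, *Ifi208*, *Ifi209* and *Ifi213* are neighbours in the PYHIN family of DNA-binding proteins, whose near-identical sequences make the split of reads among them uncertain. *Ifi204* was at 52.4 CPM against 0.739 in the CD150low library and at 51.6 against 0.955 in the CD150high library. *Gm4951*, which encodes a further GTPase of the interferon-inducible kind, was at 146 against 6.33 and at 210 against 11.7, and was detected in 23 of 39 and 48 of 52 interferon-high cells. *Saa3* stood apart from these, since its 35 UMIs in the CD150high library came from 1 cell and the CD150low library had 1 UMI. An ISRE match lay in front of 6 of the 9 that were in the promoter table.

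**Figure D2:**
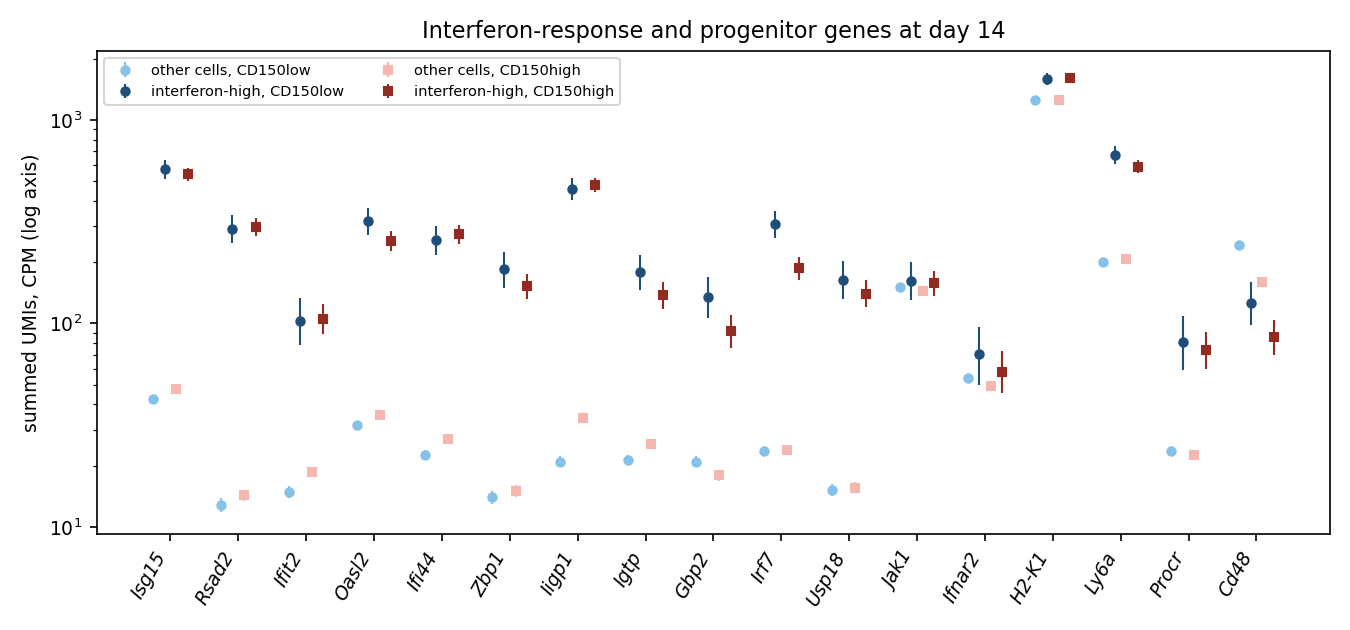
CPM (y, log axis) of 17 genes in interferon-high cells (dark) and other cells (light) of the CD150low (circles) and CD150high (squares) libraries, with exact 95% Poisson intervals that cover counting error only. The antiviral, GTPase and signalling genes lay far above the other cells, *Jak1* and *Ifnar2* next to them, *Ly6a* and *Procr* above and *Cd48* below.

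The antiviral list was higher in cells with more of the rule genes. Antiviral genes stood at 1607 and 1795 CPM in other cells without a rule UMI and at 2303 and 2575 CPM in other cells with at least 1. Other cells at 2 or more rule UMIs per 10000 had 3997 and 5080 CPM. Interferon-high cells had 4686 and 5919 CPM below 4 rule UMIs per 10000, 9117 and 7082 CPM from 4 to under 10, and 9347 and 10360 CPM at 10 or more, so cells on either side of the limit were close to each other. Among interferon-high cells, Spearman's rho of the rule genes with the antiviral list was 0.54 (39 cells) and 0.59 (52 cells). The cells of a library share its depth and processing, and rho with the UMI total was 0.08 and -0.01. A choice by the antiviral list alone, at the same number of cells over both libraries, would have taken 35 CD150low and 56 CD150high cells. These included 18 and 29 of the interferon-high cells, or 46.2% and 55.8% of them.

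The sort marker *Kit*, the stem cell factor receptor, was present in the interferon-high cells at 132 CPM against 135 in the CD150low library and at 123 against 110 in the CD150high library. *Ly6a* was far higher in the interferon-high cells, at 672 CPM against 201 and at 589 against 207, and was found in 39 of 39 and 49 of 52. *Cd48*, which marks progenitors that have left the HSC state, was lower, at 126 against 243 and at 85.5 against 159. *Cd34* was at 299.7 CPM against 327 and at 95.1 against 180, and *Slamf1* at 19.9 against 16.5 and at 35.5 against 35.02. Of these genes, *Ly6a* was thus higher and *Cd48* lower in both libraries, and *Cd34* was lower mainly in the CD150high library. Transcripts of *Kit* and of *Slamf1* (CD150) were close to those of the other cells of the same library. What moved these genes was not tested.

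Several lists of lineage markers were higher in both libraries, and that of long-term HSCs was 1 of them. The dendritic cell list (log2 1.18 and 1.08), the monocyte list (1.03 and 0.81) and the lymphoid-primed list (0.91 and 0.59) are described below. The long-term HSC markers summed to 1769 CPM against 865 in the CD150low library and 1708 against 962 in the CD150high library, or log2 1.03 and 0.83. Of 16 genes, 14 were higher in both libraries, beside 67.8% of all tested genes with the same direction in both, higher or lower. The share higher in both was not counted separately, so nothing is read from the 14. At least 2-fold higher in both were 4 of the 16, beside 2.83% of all tested genes. *Procr*, the endothelial protein C receptor of quiescent HSCs, was at 81.2 CPM (interval 59.3 to 109) against 23.6 and at 74.2 CPM (59.8 to 91.0) against 22.6. *Mllt3*, which maintains HSCs, was higher by log2 1.14 and 0.98, *Pdzk1ip1* by 1.29 in both, and *Mecom* by 0.76 and 0.94. *Vwf* went opposite ways, at 3.61 CPM against 10.2 in the CD150low library, from 2 UMIs, and at 77.4 against 55.5 in the CD150high library. Against depth-matched cells the list was at 0.51 and 0.35. Without *Ly6a*, a choice made after the values were seen, it was at 0.73 and 0.57, and at 0.12 and 0.13 against depth-matched cells. For *Procr* the log2 ratios went from 1.80 and 1.72 to 1.06 and 0.86 against depth-matched cells. Per cell, 12 of 39 and 18 of 52 lay above the 95th percentile of the other cells for this list, and 10 and 16 of these also had less of the G2/M list than the median other cell, as did 113 of 119 and 81 of 94 other cells above that percentile. Against the 95th percentile of depth-matched cells the counts were 6 and 6, and without *Ly6a* 2 and 3, or 5.13% and 5.77%.

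Cells with a *Procr* UMI and no *Cd48* UMI, a transcript counterpart of an HSC gate, were 35.9% (interval 21.2% to 52.8%) of the interferon-high and 8.32% (7.24% to 9.51%) of the other CD150low cells. In the CD150high library they were 34.6% (21.97% to 49.1%) and 15.1% (13.5% to 16.7%). Among 13 cells of each library with high basophil genes, a type that should lack *Procr*, 0 of the CD150low (up to 24.7%) and 2 of the CD150high cells (15.4%, 1.92% to 45.5%) held a *Procr* UMI, at a median of 12590 and 15710 UMIs, against 48.7% and 65.4% of the interferon-high cells. The gate itself was empty in these cells, of which 9 and 13 held *Cd48*. Thinned to 10878 UMIs, the shares were 38.1% of 21 and 37.3% of 51 interferon-high cells against 6.13% and 12.1% of the others. Interferon-high cells made up 6.64% and 5.98% of all cells in this gate. For *Flt3*, the receptor of lymphoid-primed multipotent progenitors, the shares were 33.3% against 36.5% in the CD150low library and 9.62% against 18.9% in the CD150high library, and the intervals overlapped in both libraries.

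Summed levels of cell cycle genes were lower than in all other cells, by an amount that changed with depth matching. All 24 S phase genes and all 25 G2/M genes were lower in both libraries, none of them 2-fold in both. Over all tested genes, 67.8% had the same direction in both libraries, higher or lower. The share lower in both was not counted separately, so nothing is read from these gene counts. The sums were at log2 -0.72 and -0.53 for S phase and -0.85 and -0.26 for G2/M. *Pcna*, the sliding clamp of replication, was at 191 CPM against 299 and at 211 against 317, and *Top2a*, the mitotic topoisomerase, at 278 against 496 and at 499 against 581. Against depth-matched cells the S phase list was at -0.37 and -0.27, and the G2/M list at -0.39 in the CD150low library and at 0.16, the opposite sign, in the CD150high library. The median interferon-high cell had 3.38 and 4.52 G2/M UMIs per 10000, against 4.75 and 5.19 in depth-matched cells and 9.87 and 15.8 in all other cells. Cell cycle values thus lay nearer to those of other cells when cells of the same depth were compared. Depth-matched cells also differed from all other cells in lineage genes. They had the long-term HSC list at 1244 against 865 CPM in the CD150low library and at 1337 against 962 in the CD150high library. Whether matching took away an effect of depth or of cell state was not tested. *Mki67*, a marker of cycling cells, was found in 59.0% of interferon-high against 67.5% of other CD150low cells and in 57.7% against 80.5% in the CD150high library, but thinned to 10878 UMIs in 85.7% of the 21 interferon-high CD150low cells deep enough, against 69.05%, and in 52.9% against 72.0% in the CD150high library. Cycling interferon-high cells existed in both libraries, with the highest at 94.9 and 114 G2/M UMIs per 10000. The 8 lowest genes outside the lists were *Prg2*, *Mthfd2*, *Kif20a*, *Chek1*, *Ercc6l*, *Rcc1*, *Rnf219* and *Tipin*. *Kif20a* and *Ercc6l* act in mitosis, *Chek1* and *Tipin* at the replication fork, and *Mthfd2* in mitochondrial folate metabolism. *Mthfd2* was at 12.6 CPM against 27.1 and at 16.9 against 38.0. *Prg2*, an eosinophil granule gene, had no UMI in the interferon-high cells, and 99.2% and 98.8% of its UMIs in the other cells came from 1 cell of each library.

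**Figure D3:**
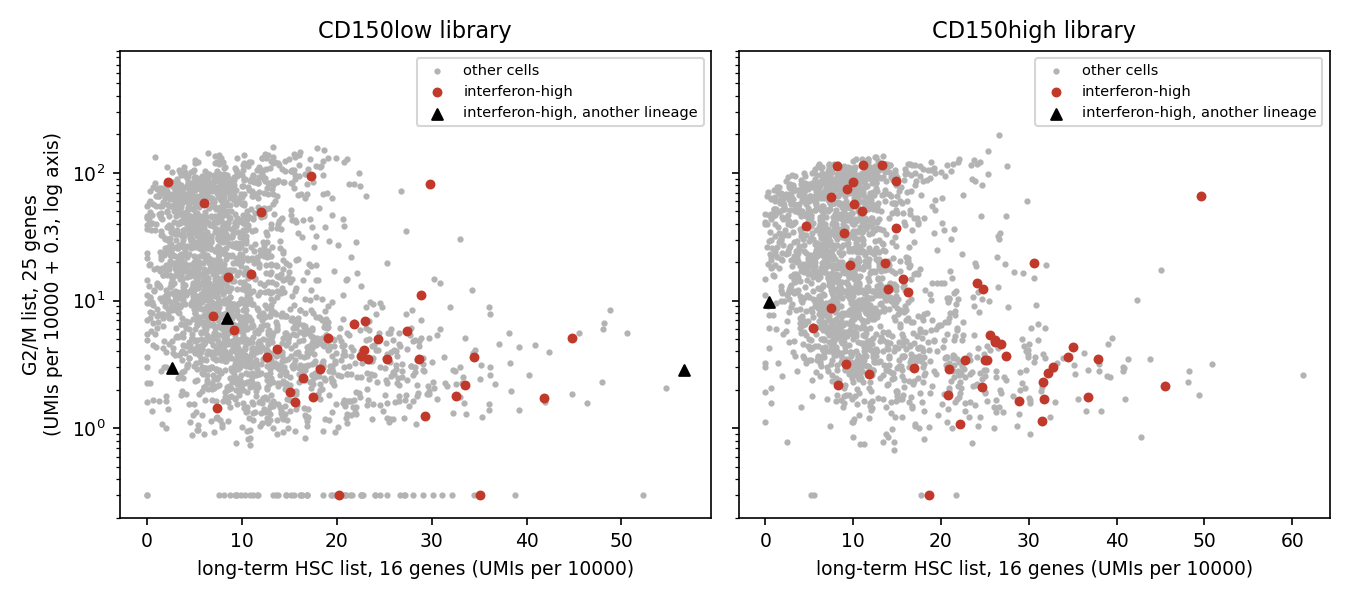
Each point is a cell, by the UMIs per 10000 of 16 long-term HSC genes (x) and of 25 G2/M genes (y, log axis, 0.3 added), with other cells in grey, interferon-high cells in red and interferon-high cells dominated by genes of another lineage as black triangles. Most interferon-high cells lay low for G2/M, 31 of 39 and 36 of 52 below the median of the other cells, and they reached across the whole range of the HSC list.

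The remaining lineage lists answered which other markers these cells carried. Over 9 lists (long-term HSC, lymphoid-primed multipotent, granulocyte-monocyte, erythroid, megakaryocyte, macrophage, monocyte, dendritic cell, and basophil and mast cell), 13 of 39 and 16 of 52 interferon-high cells exceeded the 95th percentile of the other cells for none, against 67.5% and 65.8% of the other cells. At least 2 lists were exceeded by 12 and 21 interferon-high cells (30.8% and 40.4%), against 10.1% and 8.29% of the others. Some lists share genes, such as *Lyz2* and *Cd14* (macrophage and monocyte) and *Flt3* (lymphoid-primed and dendritic cell). A cell above the percentile for 2 lists thus need not carry markers of 2 lineages. *Bst2* of the dendritic cell list is also in the antiviral list. Single genes weighed on the numbers of cells above the percentile. In the CD150high library, cells above the percentile went from 23 to 3 for the dendritic cell list without *Bst2*, from 18 to 6 for the monocyte list without *Ms4a6c* and from 18 to 12 for the HSC list without *Ly6a*, and in the CD150low library from 12 to 6, from 7 to 8 and from 12 to 7. The interferon-high cells also held fewer UMIs, and against depth-matched cells the 3 whole lists were exceeded by 20, 13 and 6 CD150high and by 11, 6 and 6 CD150low cells.

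The granulocyte-monocyte list was led by *Calr*, a chaperone that most cells express, at 823 CPM against 797 and at 851 against 893. The sum was at log2 0.32 and 0.06 (0.58 and 0.52 against depth-matched cells), but 57.8% and 54.8% of its UMIs came from 1 cell of each library. Without 4 cells dominated by another lineage the values against all other cells were -0.83 and -1.02. The median interferon-high cell had 12.1 and 10.1 UMIs per 10000 of this list against 12.1 and 10.5 in the others. *Mpo*, the neutrophil peroxidase, was found in 12 of 39 and 5 of 52 cells, and *Ctsg*, a granule protease, in 11 and 7. Neutrophil granule genes held 8 and 15 UMIs in all interferon-high cells, with *Camp*, *Ngp*, *Ltf* and *Ly6g* at 0. Erythroid genes were at log2 -0.09 and 0.09, with *Car2*, a carbonic anhydrase, at 498 CPM against 454 and at 525 against 543, and with *Gata1* at 14.4 against 15.1 and at 15.3 against 27.8. *Hbb-bs* was at log2 -3.48 and -1.24 (0.12 and 0.64 against depth-matched cells, the opposite sign), and 42.0% and 65.8% of its UMIs in the other cells came from 1 cell of each library.

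Megakaryocyte genes were at log2 -0.85 and -0.33 (-0.98 and -0.03 against depth-matched cells), and 0 of 39 and 1 of 52 interferon-high cells lay above the 95th percentile of the others. *Pf4*, a platelet chemokine, was at 39.7 CPM against 205 in the CD150low library and at 356 against 559 in the CD150high library, and was found in 15 of 39 and 38 of 52 cells. *Selp* (P-selectin) went the other way, at 86.7 against 73.7 and at 110 against 72.1. Basophil and mast cell genes were rare, with 33 and 10 UMIs in all interferon-high cells. *Mcpt8*, a basophil protease, had 3 and 1 of these, at 27.4 and 45.8 CPM in the other cells. Lymphoid-primed genes were at log2 0.91 and 0.59, at 0.68 and 0.13 against depth-matched cells, and at 0.41 and 0.61 without the dominated cells described below. *Cd52* was at 271 CPM against 133 in the CD150low library and at 53.2 against 63.3 in the CD150high library, but 65 of its 150 UMIs in interferon-high CD150low cells came from 1 cell, and without the dominated cells the log2 ratios were 0.14 and -0.36.

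Monocyte and dendritic cell lists were higher, each led by 1 gene. The monocyte list was at log2 1.03 and 0.81, led by *Ms4a6c* at 233 CPM against 74.2 and at 234 against 58.1, while *Csf1r* had 3 and 2 UMIs, *Ccr2* 10 and 3, and *Cd14* 1 in each library. Without *Ms4a6c* the list was at 0.80 and 0.30, and at 0.57 and 0.03 against depth-matched cells. The dendritic cell list was at 1.18 and 1.08, led by *Bst2* (tetherin, which holds virus at the cell surface) at 561 CPM against 185 and at 590 against 219. Without *Bst2* it was at 0.59 and 0.25, and at 0.46 and 0.06 against depth-matched cells. The defining genes *Siglech*, *Ccr9*, *Xcr1*, *Clec9a* and *Itgax* were at 0 in all interferon-high cells. *Ms4a6c* and *Bst2* were left out after their values had been seen. The macrophage list was at 0.46 and 0.22 (-0.16 and -0.12 against depth-matched cells). Its complement genes were nonetheless higher, with *C1qa* at 19.9 CPM against 3.42 and at 40.3 against 5.57, from 11 UMIs in 3 cells and 50 UMIs in 11 cells. *Vcam1* was at 21.7 against 2.16 and at 19.4 against 2.36, and *Hmox1*, heme oxygenase, at 14.4 against 5.11 and at 40.3 against 8.50. *C1qb*, *C1qc* and *Cd68* also passed 2-fold in both libraries, 6 of 9 genes with enough counts out of 19 in the list. *C1qa*, *Vcam1* and *Hmox1* were below 20 CPM in the other cells and had enough counts only through the interferon-high cells. The count of 6 was thus tilted toward higher genes, and nothing is read from it. In the CD150low library these calls leaned on few cells: without the dominated cells described below, *C1qa* was at log2 0.54, *C1qb* at 0.97, *Cd68* at 0.38 and *Hmox1* at 1.09, and *C1qc* and *Vcam1* turned to -1.16 and -1.12. In the CD150high library the 6 genes were then between 0.99 and 3.06. *Apoe* and *Lyz2*, the most abundant, lay between -0.07 and 0.30, *Adgre1* had 2 and 0 UMIs and *Timd4* 0 and 1. Whether these macrophage transcripts came from within the cells or from free RNA was not tested.

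B cell genes were close to absent, with *Pax5*, *Cd79a* and *Ms4a1* at 0 in all interferon-high cells and 27 and 36 UMIs in all, most of them *Cd79b*. T and NK cell genes were at log2 -0.30 and -0.60, nearly all from *Nkg7*, with *Cd3e*, *Cd3g* and *Cd8a* at 0. Of the p53 targets, which mark DNA damage, 1 of 6 with enough counts passed 2-fold, and the list was at 0.48 and -0.13.

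In 4 interferon-high cells, genes of another lineage dominated. A CD150low cell of 7775 UMIs held 186 of *Fabp4*, 49 of *Sparc* and 39 of *Ptprb*, genes of endothelium, with no *Kit* UMI. This cell gave 71.8% of the stroma and endothelium UMIs of the interferon-high CD150low cells, whose log2 ratio of 2.00 was 0.22 without the dominated cells (0.18 and 0.22 in the CD150high library). A CD150low cell of 14940 UMIs held 273 of *Cd74*, 207 of *H2-Aa* and 11 of *Cd209a*, genes of antigen-presenting cells, and gave 81.6% of the MHC class II UMIs, whose ratio of 2.84 was 0.50 without the dominated cells (0.57 and 0.56 in the CD150high library). A CD150low cell of 28481 UMIs held 241 of *Mpo* and 225 of *Elane*, and a CD150high cell of 51663 UMIs held 472 of *Prtn3*, 333 of *Ctsg* and 64 of *Cxcl9*, genes of granulocyte precursors apart from *Cxcl9*. *Kit* was also at 0 in the CD150low cells of 14940 and 28481 UMIs, and at 1 UMI in the CD150high cell. None of the 91 cells was called a doublet by Scrublet, which marked only 9 cells in each library and so cannot be taken to have worked here. Leaving out these 4 cells moved the antiviral ratios only to 2.11 and 1.94.

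**Figure D4:**
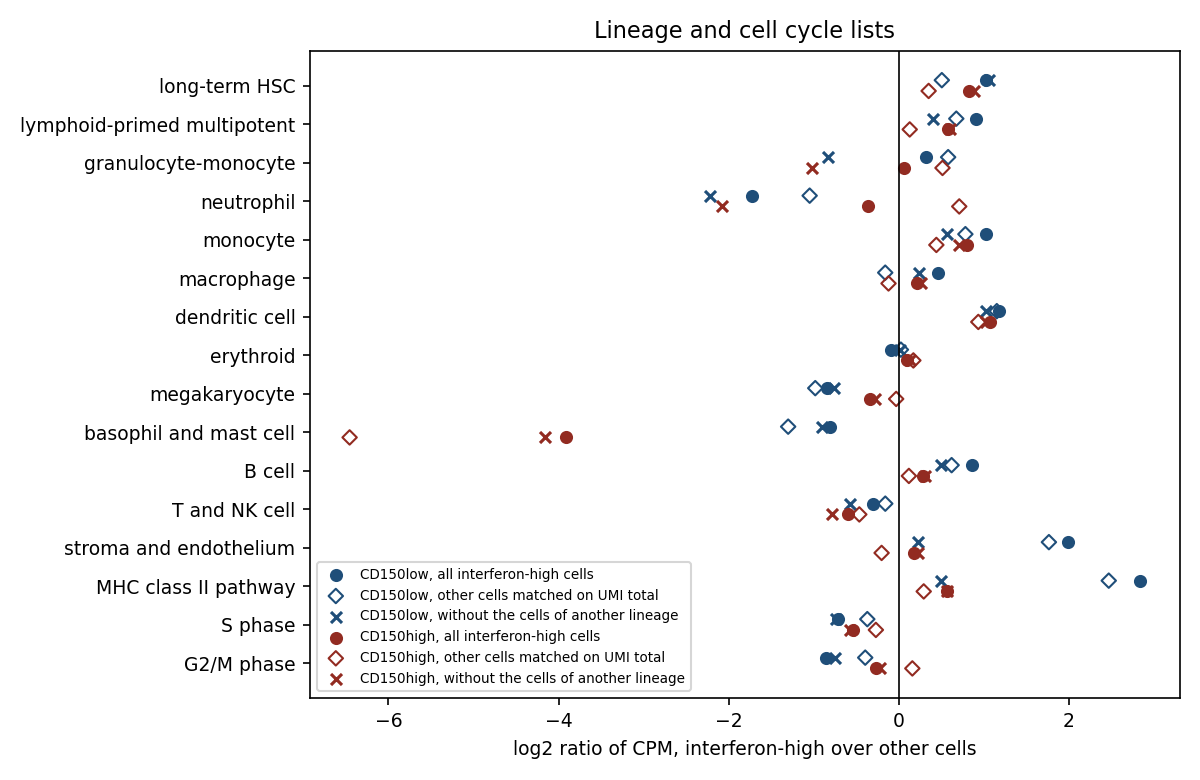
log2 ratio of summed CPM in interferon-high over other cells (x) for 16 lists (y) in the CD150low (blue) and CD150high (red) libraries, with all interferon-high cells (filled circles), against depth-matched other cells (diamonds) and without the 4 cells dominated by another lineage (crosses). Without those cells, MHC class II and stroma and endothelium values shifted in the CD150low library, and granulocyte-monocyte values in both libraries. With depth matching, S phase values moved toward 0 in both libraries and G2/M in the CD150low library. The G2/M value of the CD150high library changed sign.

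Between the libraries, interferon-high cells had similar levels of some lists and not of others. The antiviral list was at log2 0.04 (CD150high over CD150low) in the interferon-high cells and 0.22 in the other cells, the GTPases at -0.09 and 0.22, and MHC class I at -0.01 and -0.03. The rule genes were at 0.31 in both kinds of cell, immediate early genes at -1.23 and -1.16, and chemokines, with 50.2% and 51.9% of their UMIs from 1 interferon-high cell of each library, at -2.04 and -0.93. *Irf7* was at 307 CPM in the CD150low and 186 CPM in the CD150high interferon-high cells. Megakaryocyte genes were higher in the CD150high library by 1.58 in interferon-high and 1.07 in other cells, and lymphoid-primed genes were at -1.34 and -1.02, the same direction in both kinds of cell. The basophil and mast cell list, at -2.84 and 0.27, and the long-term HSC list, at -0.05 and 0.15, had opposite signs. The basophil and mast cell value rests on 33 UMIs in the CD150low interferon-high cells, 51.5% of them from 1 cell, and 10 in the CD150high ones. The G2/M list was higher by 0.85 and 0.26. With 1 library per group, none of these can be separated from a difference between libraries.

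Cells that meet the same rule were already present before transplantation. Among fresh HSCs, kept with at least 800 genes, 12 of 1104 young cells (1.09%, interval 0.563% to 1.89%) and 21 of 2758 old cells (0.761%, 0.472% to 1.16%) were interferon-high. Their antiviral list was at 10340 CPM against 2669 in young and at 5962 against 2707 in old HSCs, or log2 1.96 and 1.14. *Isg15* was at 1009 CPM against 39.4 and at 263 against 28.1, and *Ly6a* at 793 against 231 and at 360 against 198. *Procr* was at 114 CPM against 109 in young and at 267 against 215 in old HSCs, where all cells had been sorted as HSCs, and *Cd48* had no UMI in the interferon-high cells. The log2 ratio of *Procr* was thus 0.11 and 0.32 in fresh HSCs, beside 1.80 and 1.72 at day 14 (1.06 and 0.86 against depth-matched cells). Depth, gene minimum and sort differ between fresh and day 14 libraries, and no test between them was made.

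Bulk libraries, which the choice of cells did not use, gave replicates. They measure all sorted cells together, so fewer interferon-high cells and less RNA per cell cannot be told apart, and p-values measure the spread between these libraries, which for day 4 may be technical. In HSCs recovered on day 4, 0 of 11077 genes (0% in each direction) passed an adjusted p of 0.05 between CD150high and CD150low by limma with Benjamini-Hochberg adjustment, and 826 had an unadjusted p under 0.05. *Ifit1* was at 7.01, 4.50 and 6.09 FPKM (fragments scaled to transcript length and library size) in the CD150high libraries and at 12.8, 8.52 and 8.13 in the CD150low libraries. *Ifit3* was at 6.504, 1.78 and 2.78 against 11.2, 8.37 and 9.30, and *Cxcl10* at 2.58, 2.13 and 0 against 8.47, 21.6 and 2.67. For each of the 3 genes the CD150high libraries lay below all CD150low libraries, as they did for 6.38% of all genes tested. On the log2(FPKM + 1) scale, which understates changes of low genes, the differences were -0.65 ± 0.29 (SE) for *Ifit1*, -1.30 ± 0.37 for *Ifit3* and -2.05 ± 0.65 for *Cxcl10*, with limma adjusted p of 0.663, 0.491 and 0.547, so none passed.

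Other genes of the interferon lists lay on both sides on day 4. Over 109 measured genes of the interferon lists, 0 passed, 68 were higher and 41 lower in the CD150high libraries, with a median of 0.08, beside 5634 higher and 5443 lower of all 11077 genes with a median of 0.01. All 16 GTPases were on the higher side, with a median log2 difference of 0.29 and none past the test. *Iigp1* was at 73.1, 53.1 and 54.3 FPKM against 35.7, 22.6 and 30.7 in the CD150low libraries, with no overlap (6.86% of all genes lay as high in each CD150high library), a log2 difference of 1.01 ± 0.21 (SE) and a limma adjusted p of 0.301. *Cd74* was at 151, 72.7 and 97.2 against 43.5, 37.4 and 51.7, with a difference of 1.20 ± 0.24 and an adjusted p of 0.296 by limma.

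**Figure D5:**
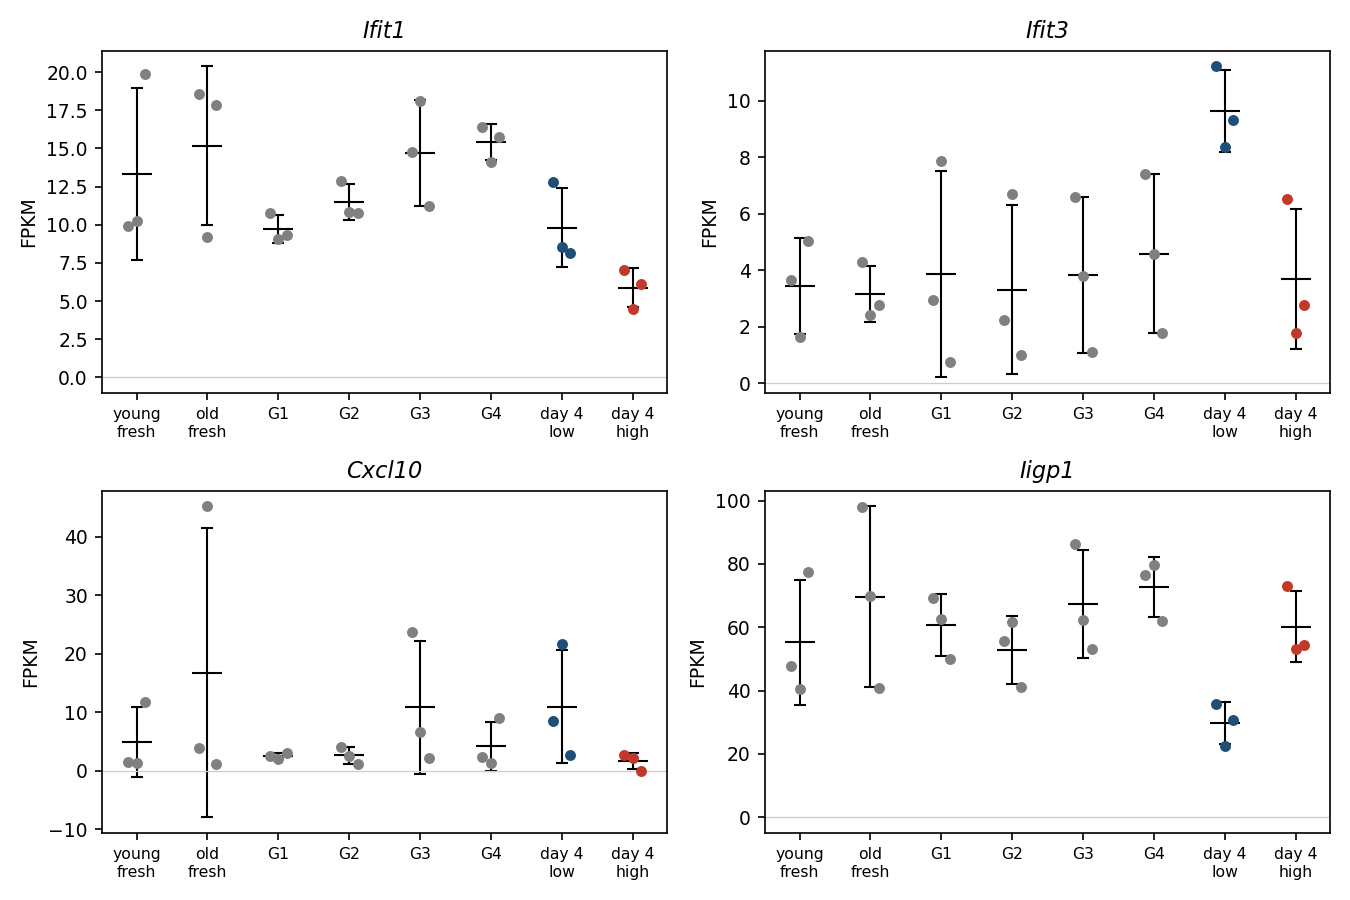
FPKM (y) of *Ifit1*, *Ifit3*, *Cxcl10* and *Iigp1* in each of 3 bulk libraries (points) of young and old fresh HSCs, of fresh old HSCs by CD150 class (G1 lowest to G4 highest) and of HSCs 4 days after transplantation (low and high CD150), with the mean and SD as lines. On day 4 the CD150high libraries lay below the CD150low libraries for *Ifit1*, *Ifit3* and *Cxcl10* and above them for *Iigp1*.

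In fresh old HSCs, 2 genes were higher (0.0174%) and 1 was lower (0.00872%) of 11466 in G4 against G1 by limma at an adjusted p of 0.05, with 738 at an unadjusted p under 0.05, and none of 107 measured interferon genes was among the 3. With the mouse as a block, since the 4 classes came from the same mice, 1 gene passed by limma, again none of the interferon genes. *Ifit1* was at 15.4 ± 1.16 FPKM in G4 and at 9.74 ± 0.914 in G1 (mean ± SD, n = 3 mice). *Ifit3* was at 4.58 ± 2.82 and 3.86 ± 3.65, and *Cxcl10* at 4.15 ± 4.16 and 2.50 ± 0.456, each with overlapping libraries. *Isg15* was at 13.6 ± 0.685 in G4 and at 11.9 ± 3.19 in G1. For *Ifit1* all G4 libraries lay above all G1 libraries, as for 7.3% of all genes (7.24% lay below), with a limma adjusted p of 0.752. Of the 107 interferon genes, 68 were higher and 39 lower in G4, with 14 of 16 GTPases on the higher side, beside 5886 higher and 5580 lower of all genes. *Rtp4*, a chaperone of receptors, was at 339 ± 107 FPKM in G4 and at 131 ± 26.1 in G1, and *Ifi27l2a* at 0.204 ± 0.262 and 3.80 ± 1.36, with limma adjusted p of 0.280 and 0.218, so neither passed. Without G1 replicate 3, limma called 89 genes (64 higher, 25 lower), and *Ifi27l2a* was among them, lower by 1.76 on the log2(FPKM + 1) scale with an adjusted p of 0.0429, while without G4 replicate 1 or G4 replicate 3 it called 0 genes. Over the other alternatives run, the limma adjusted p of *Ifi27l2a* was 0.135 to 0.959.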

How the data were processed

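Droplet single-cell libraries were deposited as UMI count matrices, which the authors made with Cell Ranger on mm10 (21901 genes, raw counts). Bulk libraries were deposited as FPKM per gene. The authors aligned them with HISAT2 2.0.0 and counted reads with HTSeq 0.12.4 without regard to strand, and which tool made the FPKM is not given in the sources used here (the submitters' processing notes name Cufflinks, with no role). Methylation files were not used here. Cells were kept as stated above, with at least 800 genes for fresh HSCs. The members and the 30 gene lists (369 genes, 1 list being the rule genes) were chosen with earlier results of these data known. UMIs were summed over cells, scaled to CPM and compared as log2 ratios with 0.5 UMIs added, with exact Poisson or binomial intervals at 95%. Genes were named as list members, as the 12 highest or as the 8 lowest outside the lists by the library nearer to 0. Bulk log2(FPKM + 1) values, for genes whose mean reached 1 FPKM in 1 of the groups compared, were compared with limma 3.58.1 (limma-trend, Benjamini-Hochberg) in R 4.3.3. Alternatives used edgeR 4.0.16 and DESeq2 1.42.0 for scaling factors only. Scripts were tested on simulated data. Promoters came from RefSeq (GRCm38.p6). *Mx1* and *Mx2* were not analysed here, and some list members are not reported here. Same-numbered day 4 libraries did not deviate together (correlations -0.01, -0.06 and -0.08), and for G4 and G1 (0.00, 0.09 and 0.09) the pairing comes from the labels, which name the mouse.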

Additional observations from a re-analysis of the deposited data

How the results depend on the processing

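The share of interferon-high cells was higher in the CD150high library under all alternatives run. At a limit of 2 UMIs per 10000 it was 2.868% in the CD150low and 3.725% in the CD150high library, at 5 it was 0.8313% and 1.397%, without *Ifit1* in the rule 0.3741% and 1.035%, and thinned, which left out 18 of 39 interferon-high cells there, 0.8454% in the CD150low library. Genes at least 2-fold higher in both libraries numbered 4214 of 15943 without a filter, 138 with at least 50 UMIs or 50 CPM, and 148 against depth-matched cells, the last added after the data were seen. Genes at least 2-fold lower in both numbered 53 without a filter, 0 with the stricter one, 18 by the mean of per-cell rates, and, added after the data were seen, 1 against depth-matched cells and 9 without the 4 dominated cells. Other alternatives gave 195 to 250 higher and 4 to 6 lower genes. TMM factors moved the median log2 ratio of all genes from 0.08 and 0.03 to -0.08 and -0.03.

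In the bulk libraries, limma called 2 genes on day 4 and 0 between G4 and G1 when every gene above 0 in 1 library was tested, and 32 and 42 when all 24 libraries shared 1 estimate of the spread. With the replicate block the calls were 3 on day 4, where the numbers do not pair the samples, and 1 for the paired G4 and G1, and it changed no other call. Leaving out 1 library at a time gave 0 to 8 genes on day 4, with 8 without CD150low replicate 3, and 0 to 89 for G4 and G1, with 89 without G1 replicate 3. In that last fit *Ifi27l2a* passed, with an adjusted p of 0.0429 by limma. The cause of these shifts was not tested. Small numbers of interferon-high cells, and 3 libraries per bulk group, limit the precision.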
